A study of Homo sapiens with 8 samples.

Results

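Transcripts of 9 genes of the AKT and mTOR pathway were followed in LNCaP cells whose METTL3 had been depleted and replaced. LNCaP is a human prostate adenocarcinoma line that responds to androgen, and METTL3 is the enzyme that writes N6-methyladenosine (m6A) into messenger RNA. The genes were the rows of the count table whose symbol was AKT1, AKT2, PHLPP1, PHLPP2, MTOR, RPTOR, RICTOR, DEPTOR or PRR5, so 9 of the 27140 genes in the table, and all 9 had enough counts to be tested. RNA was sequenced in 8 libraries from 4 stable lines, with 2 libraries per line. The mutant rescue carried a hairpin against METTL3 together with a hairpin-resistant METTL3 without catalytic activity. The wild-type rescue carried that hairpin with hairpin-resistant wild-type METTL3. The knockdown carried the METTL3 hairpin with a vector, and the control a control hairpin with a vector; the labels do not say what the vector holds. Lentivirus delivered the constructs in all 4 lines, and puromycin at 1 µg/ml selected the cells. The labels do not state separate cultures or infections for the libraries of 1 line, so each test measures only the spread between these libraries. Each condition is 1 stable line, and an effect of METTL3 was not tested apart from other differences between the lines.

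AKT kinases act downstream of phosphoinositide 3-kinase (PI3K) and promote growth and survival. They are fully activated when mTOR complex 2 (mTORC2), built on mTOR and RICTOR, phosphorylates their C-terminal hydrophobic motif, and the PHLPP phosphatases remove that phosphate. mTOR complex 1 (mTORC1), built on mTOR and RPTOR, drives protein synthesis and restrains autophagy, and DEPTOR binds mTOR in both complexes as an inhibitor. In prostate cancer the pathway is often active and interacts with androgen receptor signalling. In endometrial cancer cells, lower m6A has been linked to less PHLPP2 and more mTORC2. Only RNA was measured here, and protein, translation and phosphorylation were not.

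The sequence GGACT is a common form of the m6A consensus, and m6A is concentrated near stop codons. In the GENCODE 29 transcripts (assembly GRCh38), read on the sense strand only because the mark is laid on RNA, GGACT lay within the last 300 coding bases of 2 of the 9 genes, against 28.0% of 18866 coding genes. Both windows are shown because no other gene of the 9 has one, with GGACT in capitals, 110 bases (MTOR, chromosome 1) and 92 bases (PRR5, chromosome 22) before the stop codon.
MTOR: tcactggtcgGGACTtctctcatga
PRR5: tggagtccgtGGACTcggattctga
Over whole transcripts the motif occurred 2.66 times per kb in PRR5 and 2.30 times per kb in AKT1, more often than in 96.7% and 94.0% of coding genes, and 0.389 times per kb in DEPTOR. The other 6 genes had 0.601 (PHLPP2) to 1.25 (RPTOR) per kb, and the median coding gene had 0.937. A match to these letters is a description of the sequence, and methylation was not measured here.

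METTL3 itself, in CPM (counts relative to library size, with TMM scaling), stood at 333.3 and 334.2 CPM in mutant rescue cells, 309.4 and 324.6 in wild-type rescue cells, 26.2 and 31.3 in knockdown cells and 68.4 and 68.5 in control cells, so the level separated the knockdown, the control and the rescues as labelled. It does not tell the mutant from the wild-type copy. Counts of the resident gene and of the introduced copies fall on the same row. Library totals ranged from 15200343 to 17893241 counts. All 9 LNCaP and luminal markers were detected in every library, with a summed level of 7805 and 7773 CPM in mutant rescue cells, 7810 and 7893 in wild-type rescue cells, 7592 and 7663 in knockdown cells and 9482 and 9434 in control cells. Markers of basal epithelium summed to 2.64 to 4.01 CPM, of leukocytes to 15.6 to 26.2 and of endothelium to 5.60 to 10.8. Nearly all of the leukocyte sum was CD68, with PTPRC and CD3E at or near no counts, and most of the endothelium sum was VWF. The 4 fibroblast markers summed to 98.8 and 104.5 CPM in mutant rescue cells, 96.9 and 95.4 in wild-type rescue cells, 81.6 and 89.5 in knockdown cells and 78.1 and 78.9 in control cells. Nearly all of that was COL1A1, and COL1A2 had 0 counts in all 8 libraries. The part of these marker shifts in the results was not tested.

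Counts per gene and library ran from 216 (DEPTOR) to 5621 (AKT1). Per kb of gene length, AKT1 was the most abundant of the 9, at 108 ± 0.768 CPM per kb in the mutant rescue and 105 ± 0.812 in the control (SD, n = 2). AKT2 followed at 38.1 ± 0.881 in the mutant rescue and 41.8 ± 0.837 in the control, and MTOR was at 13.7 ± 0.436 in the mutant rescue and 22.7 ± 0.631 in the control. RPTOR stood at 10.7 ± 0.170 CPM per kb in the mutant rescue and 11.02 ± 0.0298 in the control, and PRR5 at 8.63 ± 0.641 in the mutant rescue and 9.66 ± 0.336 in the control. DEPTOR, PHLPP1, RICTOR and PHLPP2 lay between 3.16 and 7.04 CPM per kb in all 8 libraries, with the mean of PHLPP2 the lowest in each line. By line means, RICTOR was the highest of DEPTOR, PHLPP1 and RICTOR in the mutant rescue and the lowest of them in the control. PRR5L, a paralog of PRR5, had 2 to 9 counts per library and was not tested.

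**Figure D1:**
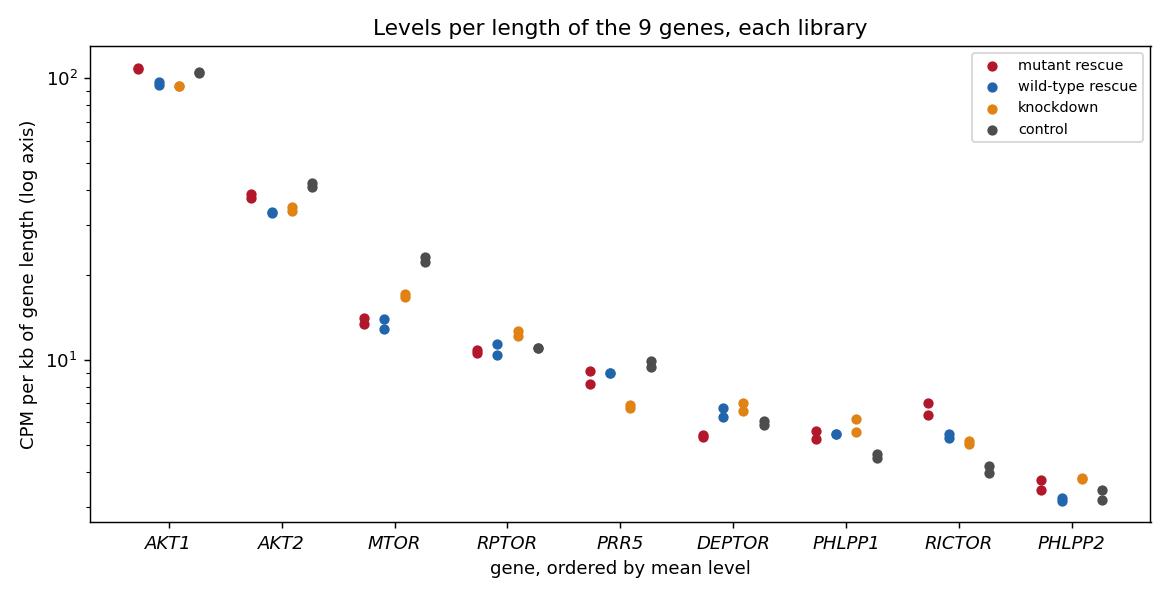
Level of each of the 9 genes per kb of gene length, in CPM per kb on a log axis, with 1 point per library and the lines in the order mutant rescue, wild-type rescue, knockdown and control. AKT1 is the highest in every line, and PHLPP2 sits between 3.16 and 3.80 CPM per kb.

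All 9 genes differed somewhere among the 4 lines, as did 73.8% of the 15289 tested genes (edgeR quasi-likelihood test, Benjamini-Hochberg adjusted p from 7.40e-54 for MTOR to 0.00359 for DEPTOR). In the 6 pairwise comparisons, 34 of the 54 tests of these genes were called, meaning an edgeR adjusted p under 0.05 over all tested genes, with no minimum fold. Of all tested genes, 24.0% to 58.8% were called per comparison. The changes were modest. The log2 fold change farthest from 0 was -0.75, and 2 of the 9 genes, MTOR and RICTOR, had line means that spanned 0.5 or more on the log2 scale, as 35.3% of all tested genes did. With 2 libraries per line an exact permutation test cannot go below 0.333, so each adjusted p comes from the model fitted across genes. Beyond counting noise, the libraries of a line varied by 1.40% (common coefficient of variation in the fit). An adjusted p sets a difference between lines only against that small spread. A gene is measured as its share of all counts, and fewer cells of a kind cannot be told apart from less RNA per cell.

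**Figure D2:**
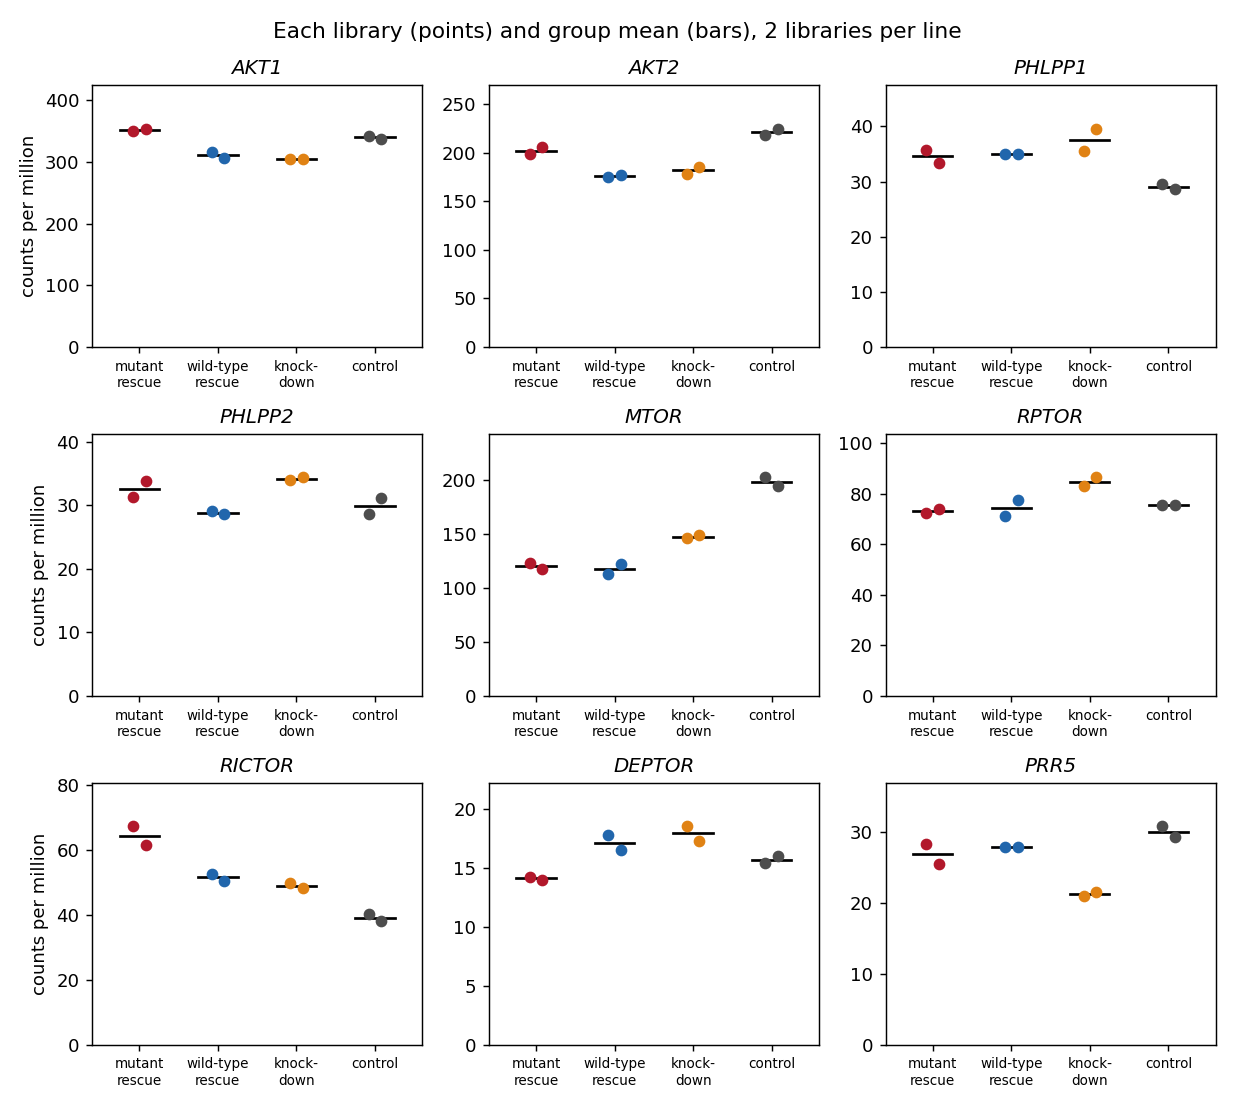
CPM of each of the 9 genes in every library (points) with the mean of each line (short bars), on axes that start at 0. MTOR is highest in the control libraries (202.0 and 194.3 CPM), RICTOR in the mutant rescue libraries (67.2 and 61.3), and PRR5 is lowest in the knockdown libraries (21.0 and 21.5).

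The first question is which of these transcripts differed between the knockdown and the control. On knockdown, the kinases AKT1, AKT2 and MTOR and the mTORC2 subunit PRR5 fell, while both PHLPP phosphatases, RPTOR and RICTOR rose. That made 8 of 9 genes called, against 48.0% of all tested genes, with 4 rises against 22.9% and 4 falls against 25.1%. DEPTOR was not called. All tested genes include ones with far fewer counts, and the 9 genes were chosen with earlier results of these data known. In 9 of 9 genes the knockdown and control libraries did not overlap, against 72.5% of all genes. The median absolute log2 fold change was 0.287 for the 9 genes and 0.191 for all tested genes. The change of PRR5 was larger than that of 84.2% of genes, and the change of MTOR larger than that of 79.8%.

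AKT1, the most widely expressed AKT kinase, had 350.3 and 353.9 CPM in mutant rescue cells, 315.5 and 306.7 in wild-type rescue cells, 305.1 and 304.0 in knockdown cells and 341.5 and 337.7 in control cells. The mutant rescue and the control lay above the wild-type rescue and the knockdown, with no overlap. The change on knockdown was -10.3% (log2 fold change -0.16 ± 0.024 SE, adjusted p = 8.41e-09 by edgeR). The wild-type rescue was not called against the knockdown (0.030, 95% interval -0.018 to 0.078), whereas the mutant rescue was higher than the knockdown (0.21 ± 0.024 SE, adjusted p = 5.89e-14 by edgeR) and higher than the wild-type rescue (0.18 ± 0.024 SE, adjusted p = 8.57e-11 by edgeR). Against the control, AKT1 was lower in the wild-type rescue (-0.13 ± 0.024 SE, adjusted p = 2.13e-06 by edgeR). The mutant rescue stood at 0.052 over the control (adjusted p = 0.0515 by edgeR), close enough to the threshold that 8 of 14 alternatives called it.

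AKT2, the isoform linked to glucose uptake, had 198.7 and 205.3 CPM in mutant rescue cells, 175.4 and 177.0 in wild-type rescue cells, 178.2 and 185.4 in knockdown cells and 218.4 and 224.7 in control cells. The control libraries were above all others, and those of the mutant rescue came next. The change on knockdown was -18.02% (log2 fold change -0.29 ± 0.029 SE, adjusted p = 5.47e-17 by edgeR). The wild-type rescue was not called against the knockdown (-0.043, 95% interval -0.10 to 0.015). AKT2 was higher in the mutant rescue than in the knockdown (0.15 ± 0.029 SE, adjusted p = 2.59e-06 by edgeR) and than in the wild-type rescue (0.20 ± 0.030 SE, adjusted p = 5.55e-09 by edgeR). AKT2 was below the control in the mutant rescue (-0.13 ± 0.029 SE, adjusted p = 2.44e-05 by edgeR) and in the wild-type rescue (-0.33 ± 0.029 SE, adjusted p = 8.63e-21 by edgeR).

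PHLPP1, which dephosphorylates the hydrophobic motif of AKT, had 35.7 and 33.4 CPM in mutant rescue cells, 35.0 and 35.0 in wild-type rescue cells, 35.5 and 39.6 in knockdown cells and 29.6 and 28.6 in control cells. Every library with the METTL3 hairpin was above both control libraries. PHLPP1 rose by 28.8% on knockdown (log2 fold change 0.37 ± 0.066 SE, adjusted p = 8.35e-07 by edgeR). It was also higher than in the control in the mutant rescue (0.25 ± 0.068 SE, adjusted p = 9.24e-04 by edgeR) and in the wild-type rescue (0.27 ± 0.067 SE, adjusted p = 3.80e-04 by edgeR). Against the knockdown, neither the mutant rescue (-0.12, 95% interval -0.24 to 0.0098) nor the wild-type rescue (-0.099, 95% interval -0.22 to 0.025) was called, but without knockdown replicate 1 the mutant rescue was called lower (adjusted p = 0.0303 by edgeR). The difference between the rescues was not called (mutant over wild-type -0.018, 95% interval -0.15 to 0.11).

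PHLPP2, the paralog with the same substrate site, had 31.2 and 33.8 CPM in mutant rescue cells, 29.1 and 28.6 in wild-type rescue cells, 34.0 and 34.4 in knockdown cells and 28.6 and 31.1 in control cells. The knockdown libraries were the highest, and the wild-type rescue and the control overlapped. PHLPP2 rose by 14.4% on knockdown (log2 fold change 0.19 ± 0.067 SE, adjusted p = 0.0116 by edgeR). It was lower in the wild-type rescue than in the knockdown (-0.25 ± 0.067 SE, adjusted p = 0.00255 by edgeR) and higher in the mutant rescue than in the wild-type rescue (0.18 ± 0.069 SE, adjusted p = 0.0298 by edgeR). The call on knockdown ended with DESeq2 (adjusted p = 0.118), and by edgeR without knockdown replicate 2 (0.0535), without control replicate 1 (0.204) and once the length trend was removed (0.216). The call of the wild-type rescue over the knockdown ended with DESeq2 (adjusted p = 0.0618) and without the length trend (0.198 by edgeR). The call between the rescues ended with DESeq2 (adjusted p = 0.189), and by edgeR without mutant rescue replicate 2 (0.320) and without replicate 1 (0.0666) or 2 (0.137) of the wild-type rescue. The mutant rescue was not called against the control (0.12, 95% interval -0.013 to 0.26), except with the length trend removed (adjusted p = 0.0410 by edgeR). Of the exonic bases of PHLPP2, 8.55% overlap those of MARVELD3 on the opposite strand in GENCODE 29, and MARVELD3 had 27.5 to 33.4 CPM. The kit keeps the strand, but whether the counting used it is not given in the sources used here. Opposite-strand overlap also covers 9.61% of the exonic bases of DEPTOR (a long noncoding gene) and 5.94% of those of AKT1 (an antisense gene).

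**Figure D3:**
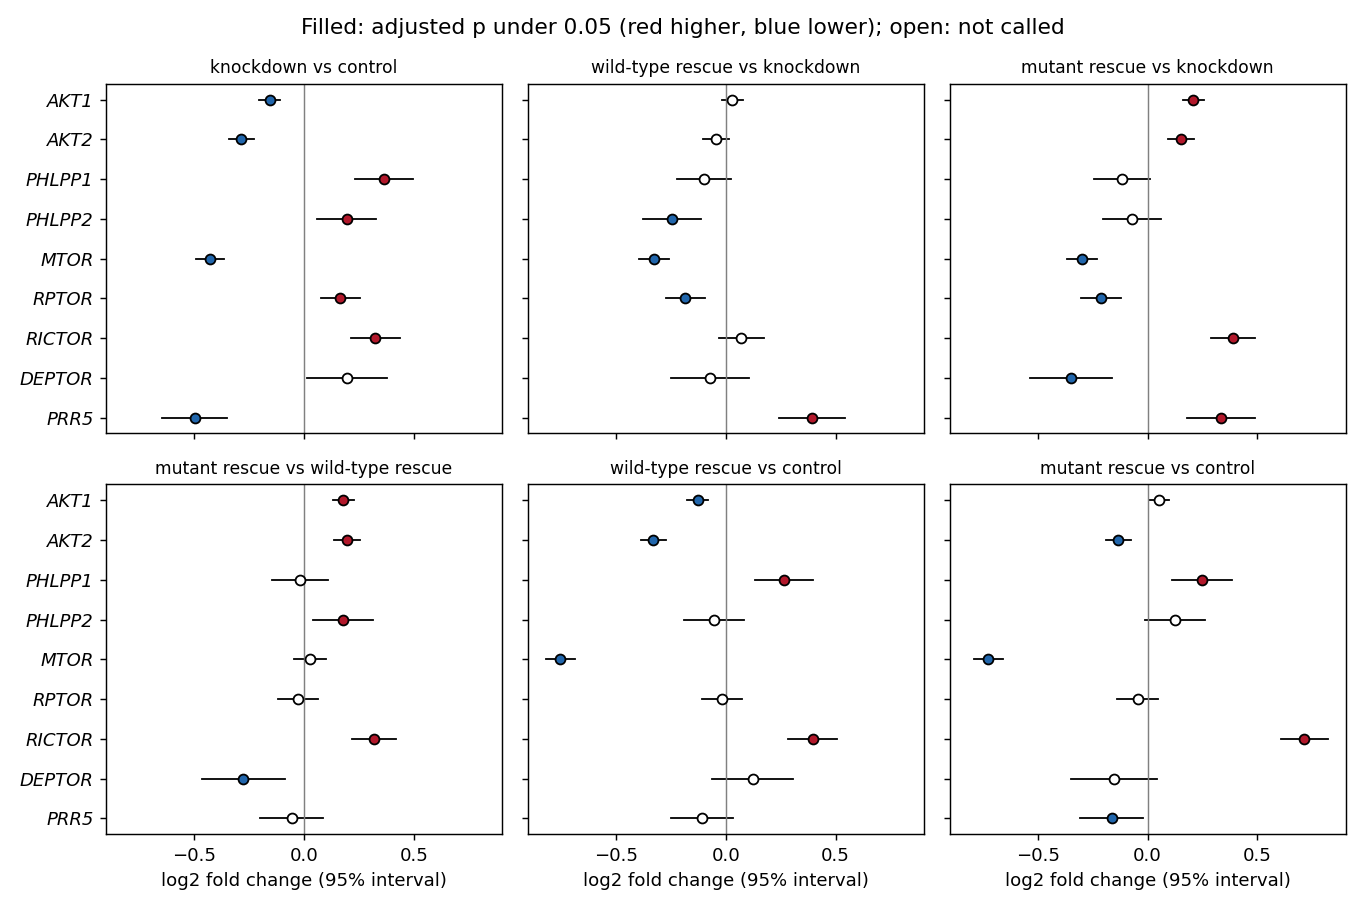
Log2 fold change of the 9 genes in the 6 comparisons, with 95% intervals of the edgeR fit before adjustment for many genes. Filled points had an adjusted p under 0.05 (red higher, blue lower) and open points did not. MTOR lies at -0.73 and -0.75 in the mutant and wild-type rescue against the control, and RICTOR is right of 0 in every comparison.

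MTOR, the kinase shared by both complexes, had 122.5 and 117.2 CPM in mutant rescue cells, 112.4 and 122.1 in wild-type rescue cells, 145.6 and 149.1 in knockdown cells and 202.0 and 194.3 in control cells. The control, the knockdown and the rescues formed 3 levels without overlap, and the rescues overlapped each other. The change on knockdown was -25.7% (log2 fold change -0.43 ± 0.032 SE, adjusted p = 1.20e-25 by edgeR). In neither rescue was MTOR nearer to the control than in the knockdown. It was lower than in the knockdown in the mutant rescue (-0.30 ± 0.035 SE, adjusted p = 1.93e-13 by edgeR) and in the wild-type rescue (-0.33 ± 0.035 SE, adjusted p = 7.87e-15 by edgeR). Against the control the change was -39.5% in the mutant rescue (-0.73 ± 0.034 SE, adjusted p = 4.38e-46 by edgeR) and -40.7% in the wild-type rescue (-0.75 ± 0.033 SE, adjusted p = 2.98e-48 by edgeR). The rescues were not called against each other (mutant over wild-type 0.028, 95% interval -0.044 to 0.10). MTOR-AS1, which overlaps MTOR exons on the opposite strand, had at most 2 counts in a library.

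RPTOR, the scaffold that brings substrates to mTORC1, had 72.4 and 74.0 CPM in mutant rescue cells, 71.2 and 77.7 in wild-type rescue cells, 83.2 and 86.5 in knockdown cells and 75.7 and 75.4 in control cells. The knockdown libraries were above all others. RPTOR rose by 12.2% on knockdown (log2 fold change 0.17 ± 0.045 SE, adjusted p = 0.00113 by edgeR). It was lower than in the knockdown in the mutant rescue (-0.21 ± 0.046 SE, adjusted p = 3.28e-05 by edgeR) and in the wild-type rescue (-0.18 ± 0.045 SE, adjusted p = 7.05e-04 by edgeR). Against the control, neither the mutant rescue (-0.045, 95% interval -0.14 to 0.048) nor the wild-type rescue (-0.018, 95% interval -0.11 to 0.074) was called. The difference of the wild-type rescue from the knockdown lost its call without wild-type rescue replicate 1 (adjusted p = 0.0911 by edgeR) and without the length trend (0.147).

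RICTOR, which defines mTORC2, had 67.2 and 61.3 CPM in mutant rescue cells, 52.6 and 50.5 in wild-type rescue cells, 49.6 and 48.4 in knockdown cells and 40.3 and 37.98 in control cells. No 2 lines overlapped, and the order was mutant rescue, wild-type rescue, knockdown and control. RICTOR rose by 25.3% on knockdown (log2 fold change 0.33 ± 0.056 SE, adjusted p = 2.38e-07 by edgeR). The wild-type rescue was not called against the knockdown (0.070, 95% interval -0.033 to 0.17), though it was with the length trend removed (0.19, adjusted p = 0.00298 by edgeR). In the mutant rescue RICTOR was 64.03% higher than in the control (0.71 ± 0.054 SE, adjusted p = 3.94e-26 by edgeR). It was also higher there than in the knockdown (0.39 ± 0.051 SE, adjusted p = 1.46e-11 by edgeR) and than in the wild-type rescue (0.32 ± 0.050 SE, adjusted p = 2.35e-08 by edgeR). The wild-type rescue was above the control (0.40 ± 0.055 SE, adjusted p = 3.20e-10 by edgeR). Of the exonic bases of RICTOR 1.69% overlap OSMR on the opposite strand, a gene with 16.1 to 21.5 CPM.

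PRR5, an mTORC2 subunit also called Protor-1, had 28.3 and 25.4 CPM in mutant rescue cells, 27.9 and 27.8 in wild-type rescue cells, 21.0 and 21.5 in knockdown cells and 30.8 and 29.3 in control cells. The knockdown libraries were below the other 6. The change on knockdown was -29.2% (log2 fold change -0.50 ± 0.076 SE, adjusted p = 5.07e-09 by edgeR). PRR5 was higher than in the knockdown in the mutant rescue (0.34 ± 0.078 SE, adjusted p = 1.04e-04 by edgeR) and in the wild-type rescue (0.39 ± 0.076 SE, adjusted p = 1.21e-05 by edgeR). The wild-type rescue was not called against the control (-0.11, 95% interval -0.25 to 0.033). The mutant rescue was called lower than the control (-0.16 ± 0.073 SE, adjusted p = 0.0459 by edgeR), but not with DESeq2 (adjusted p = 0.235). By edgeR that call also ended without mutant rescue replicate 2 (adjusted p = 0.438), without control replicate 1 (0.240) or 2 (0.0563), without the filter on low counts (0.0791) and without the length trend (0.0809). PRR5 shares 17.8% of its exonic bases with the read-through gene PRR5-ARHGAP8 on the same strand in GENCODE 29, which was listed at 0 counts in all 8 libraries, so how reads of the shared part were assigned is not known.

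DEPTOR, the inhibitor of both complexes, was the least counted of the 9, with 14.3 and 14.0 CPM in mutant rescue cells, 17.8 and 16.5 in wild-type rescue cells, 18.6 and 17.3 in knockdown cells and 15.4 and 16.0 in control cells. The mutant rescue libraries were the lowest, and the wild-type rescue and the knockdown overlapped. The knockdown was not called against the control (0.20, 95% interval 0.013 to 0.38, adjusted p = 0.0713 by edgeR), except with the length trend removed (0.0258). DEPTOR was lower in the mutant rescue than in the knockdown (log2 fold change -0.35 ± 0.095 SE, adjusted p = 0.00104 by edgeR) and than in the wild-type rescue (-0.28 ± 0.096 SE, adjusted p = 0.0140 by edgeR). The difference between the rescues was not called with DESeq2 (adjusted p = 0.119), nor by edgeR without mutant rescue replicate 2 (0.0881) or without replicate 1 of the wild-type rescue (0.123). Against the control, neither the mutant rescue (-0.15, 95% interval -0.35 to 0.043) nor the wild-type rescue (0.12, 95% interval -0.061 to 0.31) was called.

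In the mutant rescue AKT1, AKT2, RICTOR and PRR5 were higher and MTOR, RPTOR and DEPTOR lower than in the knockdown. That was 7 of 9 genes called against 51.7% of all tested genes (4 higher against 25.9% and 3 lower against 25.8%). The libraries of 8 of 9 did not overlap, against 74.0%. In the wild-type rescue PRR5 was higher and PHLPP2, MTOR and RPTOR lower than in the knockdown. That was 4 of 9 against 24.0% (1 higher against 10.8% and 3 lower against 13.2%), with 8 of 9 not overlapping against 57.7%. The rescue lines differ by their labels in whether the introduced METTL3 is active. Between them AKT1, AKT2, PHLPP2 and RICTOR were higher and DEPTOR lower in the mutant, 5 of 9 against 41.3% (4 higher against 21.0% and 1 lower against 20.3%), with 5 of 9 not overlapping against 67.7%. That count was 3 with DESeq2, 3 without mutant rescue replicate 2 and 3 without replicate 1 of the wild-type rescue.

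Against the control, 5 of 9 were called in the mutant rescue (PHLPP1 and RICTOR higher, AKT2, MTOR and PRR5 lower) against 58.8% of all genes, with 2 higher against 29.1%, 3 lower against 29.7% and 9 of 9 not overlapping against 77.7%. In the wild-type rescue 5 of 9 were called (PHLPP1 and RICTOR higher, AKT1, AKT2 and MTOR lower) against 49.3%, with 2 higher against 23.8%, 3 lower against 25.5% and 7 of 9 not overlapping against 72.7%. Comparisons with a line in common share its libraries. Knockdown over control and mutant over wild-type rescue have no library in common. Of the kinases, AKT1 stood at -0.16 on knockdown and 0.18 between the rescues, AKT2 stood at -0.29 on knockdown and 0.20 between the rescues and MTOR stood at -0.43 on knockdown and 0.028 between the rescues. The phosphatase PHLPP1 stood at 0.37 on knockdown and -0.018 between the rescues, and PHLPP2 stood at 0.19 on knockdown and 0.18 between the rescues. The subunit RPTOR stood at 0.17 on knockdown and -0.027 between the rescues, RICTOR stood at 0.33 on knockdown and 0.32 between the rescues, and PRR5 stood at -0.50 on knockdown and -0.056 between the rescues. DEPTOR stood at 0.20 on knockdown and -0.28 between the rescues. Of these values, those of PHLPP1, MTOR, RPTOR and PRR5 between the rescues and of DEPTOR on knockdown were not called.

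Because a ratio of 2 genes within a library does not depend on library scaling, the balance of the subunits was also taken per length. It is a description without a test. A library's trend over gene length was not removed from these ratios, and it can enter them where the 2 genes differ in length. The ratio of RICTOR to RPTOR was 0.662 and 0.591 in mutant rescue cells, 0.527 and 0.463 in wild-type rescue cells, 0.426 and 0.399 in knockdown cells and 0.380 and 0.359 in control cells. The 4 lines did not overlap, and the mutant rescue was the highest. The ratio of RICTOR to MTOR was 0.498 and 0.475 in mutant rescue cells, 0.425 and 0.376 in wild-type rescue cells, 0.309 and 0.294 in knockdown cells and 0.181 and 0.177 in control cells, in the same order and again without overlap. The ratio of RPTOR to MTOR was 0.752 and 0.804 in mutant rescue cells, 0.806 and 0.811 in wild-type rescue cells, 0.727 and 0.738 in knockdown cells and 0.477 and 0.494 in control cells, so that the control libraries stood below the other 6. DEPTOR over MTOR averaged 0.390 ± 0.00623 in the mutant rescue, 0.486 ± 0.0536 in the wild-type rescue, 0.403 ± 0.0261 in the knockdown and 0.263 ± 0.0142 in the control (SD, n = 2 each). PHLPP1 over PHLPP2 ranged over all libraries from 1.30 to 1.73. AKT2 over AKT1 was 0.341 to 0.374 in the lines with the METTL3 hairpin and 0.392 to 0.408 in the control.

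**Figure D4:**
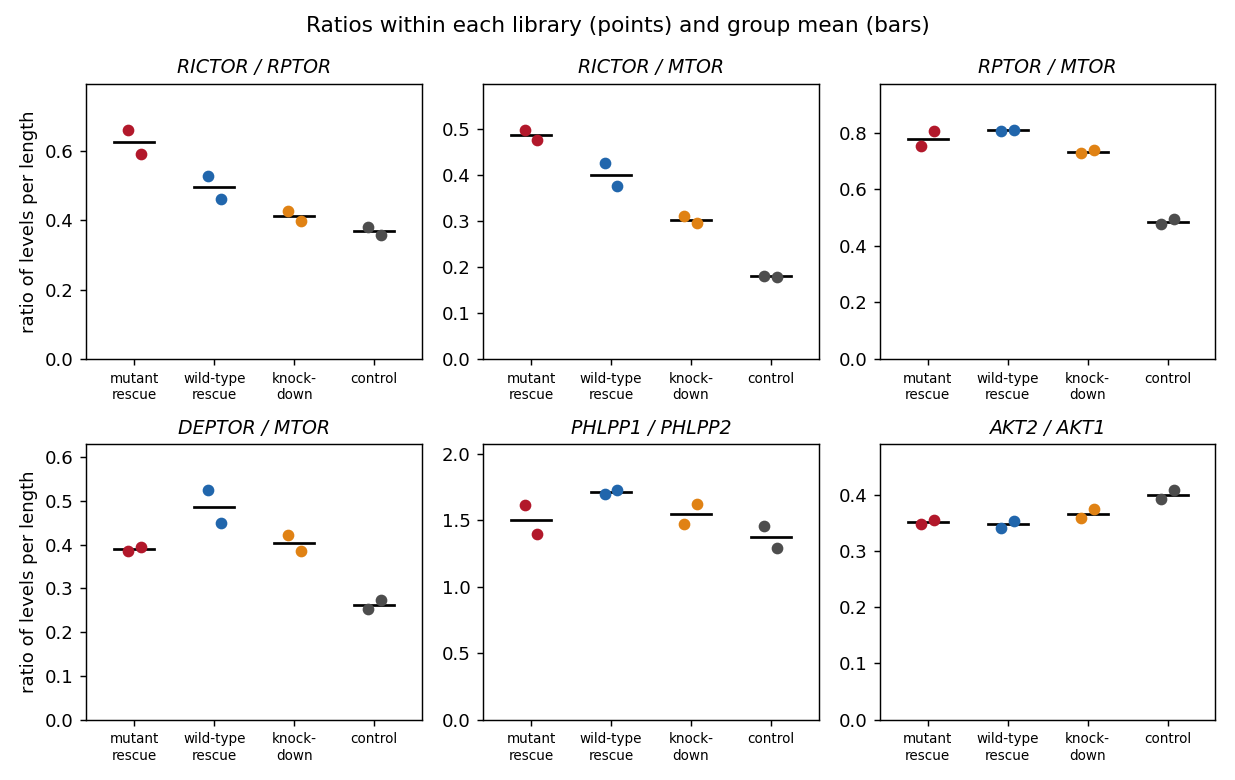
Ratios of levels per length within each library (points) and their mean per line (short bars), on axes that start at 0, for 6 pairs of the 9 genes. The RICTOR to RPTOR and RICTOR to MTOR ratios are ordered mutant rescue, wild-type rescue, knockdown and control without overlap.

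The patterns most like those of MTOR and RICTOR over the 8 libraries were sought among 11152 genes averaging 5 CPM or more. Genes with clone or placeholder names, such as LOC, LINC or KIAA symbols, were left out beforehand. Likeness was the root mean square difference of log2 CPM after each gene's own mean was removed. SLC7A1, a transporter of cationic amino acids, was nearest to MTOR at 0.0560, followed by the actin-related gene ACTR3B (0.0579) and the zinc finger gene ZNF425 (0.0605). For RICTOR the nearest were ASPHD2 at 0.0340, CREBRF at 0.0368 and the spectrin gene SPTAN1 at 0.0471. With 8 libraries in 4 lines such likeness rests mostly on 4 means.

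The rest of the pathway was counted in 9 lists with 127 tested genes. On knockdown 45 rose, 34 fell and 48 were not called, when 22.9% of all tested genes rose and 25.1% fell, with a median log2 fold change of 0.033, against -0.011 for all tested genes. Between the rescues 49 were higher in the mutant, 29 lower and 49 not called, when 21.0% of all tested genes were higher and 20.3% lower, with a median of 0.052, against 0.000032 for all tested genes. The lists are described by their counts and were not tested as sets. The shares of all genes given beside the lists are those of the edgeR fit. DESeq2 called fewer of the 15289 tested genes: 4767 on knockdown, 3763 between the rescues and 1705 for the wild-type rescue over the knockdown. List counts with DESeq2 are to be read against these.

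The PI3K list holds class II and class III genes beside those of class I. Of its 10 tested subunits 4 rose and 1 fell on knockdown (all genes 22.9% up, 25.1% down, list median 0.047). PIK3CA, a catalytic subunit, was at 0.39 ± 0.080 SE, adjusted p = 1.64e-05 by edgeR and the regulatory subunit PIK3R2 at -0.37 ± 0.027 SE, adjusted p = 1.49e-26 by edgeR. In the wild-type rescue over the knockdown 9 of the 10 fell and 1 rose, when 13.2% of all tested genes fell and 10.8% rose, with a median of -0.20 against 0.0060 for all tested genes. That count of 10 calls was 5 with DESeq2, 6 without the length trend and 5 without knockdown replicate 1. In the mutant rescue over the knockdown 7 fell and 1 rose, when 25.8% of all tested genes fell and 25.9% rose. The median there was -0.24, against 0.0017 for all tested genes. Of the lists, only this one is given for each rescue over the knockdown, and its median was the largest in size in both. It therefore does not stand for the other lists. Their medians ran from -0.066 to 0.032 in the wild-type rescue and from -0.032 to 0.22 in the mutant rescue. Against the control, 1 PI3K gene was higher and 5 lower in the wild-type rescue (all genes 23.8% and 25.5%). In the mutant rescue 3 were higher and 6 lower than in the control (all genes 29.1% and 29.7%). Between the rescues 3 were higher and 3 lower in the mutant (all genes 21.0% higher, 20.3% lower, list median 0.0046). PIK3C2A was at 0.42 ± 0.030 SE and PIK3C3, the class III kinase, at -0.27 ± 0.070 SE.

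Of 9 lipid phosphatases 3 rose and 2 fell on knockdown (all genes 22.9% up, 25.1% down, list median -0.045), and 3 were higher and 1 lower in the mutant than in the wild-type rescue (all genes 21.0% higher, 20.3% lower, list median 0.17). The 5 calls on knockdown were 3 with DESeq2, without the length trend, without knockdown replicate 2 and without control replicate 2. INPP4B, which degrades a PI3K product, was at 0.45 ± 0.091 SE on knockdown and -0.52 ± 0.10 SE between the rescues. SYNJ1 was at 0.45 ± 0.080 SE on knockdown and 0.41 ± 0.074 SE between the rescues.

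Around AKT, 3 of 15 partners, phosphatases and scaffolds rose and 6 fell on knockdown (all genes 22.9% up, 25.1% down, list median -0.052) (5 calls with DESeq2), whereas 7 were higher and 5 lower in the mutant than in the wild-type rescue (all genes 21.0% higher, 20.3% lower, list median 0.052). FKBP5, an androgen-induced chaperone that brings PHLPP to AKT, averaged 271.7 CPM in the knockdown and 336.7 in the control (-0.31 ± 0.025 SE), and 298.2 in the mutant rescue and 258.7 in the wild-type rescue (0.21 ± 0.025 SE). TRIB3, a pseudokinase that binds AKT, was at -0.64 ± 0.048 SE on knockdown and 0.59 ± 0.050 SE between the rescues. PPP2R5E, a regulatory subunit of protein phosphatase 2A, was at -0.44 ± 0.056 SE on knockdown, and PPP2R1B, a scaffold subunit of it, at -0.34 ± 0.052 SE between the rescues. PDPK1, which phosphorylates the activation loop of AKT, was not called on knockdown (-0.057, 95% interval -0.16 to 0.043), except without the length trend (adjusted p = 0.0448 by edgeR). It was higher in the mutant than in the wild-type rescue (0.21 ± 0.053 SE), but not without replicate 2 of the wild-type rescue (adjusted p = 0.0616 by edgeR).

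Among 7 other mTOR complex subunits and assembly factors, 1 rose and 2 fell on knockdown (all genes 22.9% up, 25.1% down, list median -0.087), and 1 was higher and 3 lower in the mutant than in the wild-type rescue (all genes 21.0% higher, 20.3% lower, list median -0.058). MLST8, a subunit of both complexes, was at -0.20 ± 0.039 SE, adjusted p = 3.41e-06 by edgeR on knockdown. The assembly factor TTI2 was at 0.28 ± 0.083 SE, but was not called without knockdown replicate 2 (adjusted p = 0.0810 by edgeR). Between the rescues WAC was at 0.26 ± 0.030 SE, MLST8 at -0.12 ± 0.041 SE, the mTORC2 subunit MAPKAP1 at -0.13 ± 0.044 SE and the mTORC1 inhibitor AKT1S1 at -0.12 ± 0.041 SE. Of these 4 calls DESeq2 made 1, that of WAC, with an adjusted p of 0.109 for MLST8, 0.102 for MAPKAP1 and 0.102 for AKT1S1. By edgeR, MLST8 and MAPKAP1 lost their call without mutant rescue replicate 1 (adjusted p = 0.124 and 0.252) and without replicate 1 of the wild-type rescue (0.100 and 0.0690). AKT1S1 lost its call without mutant rescue replicate 2 (adjusted p = 0.119 by edgeR) and without replicate 2 of the wild-type rescue (0.134).

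Of 14 genes of the TSC complex, RHEB and energy sensing, 5 rose and 4 fell on knockdown (all genes 22.9% up, 25.1% down, list median 0.068), and 5 were higher and 1 lower in the mutant than in the wild-type rescue (all genes 21.0% higher, 20.3% lower, list median 0.11). The 9 calls on knockdown were 5 with DESeq2 and 5 without knockdown replicate 1. PRKAA2, a catalytic subunit of AMPK, had 62.8 and 66.8 CPM in the knockdown, against 40.5 and 41.1 in the control (0.67 ± 0.053 SE), and DDIT4L, a relative of the mTORC1 inhibitor DDIT4, was at 0.81 ± 0.15 SE. RHEB, the GTPase that activates mTORC1, was at -0.18 ± 0.055 SE, adjusted p = 0.00442 by edgeR on knockdown. RHEB was not called with DESeq2 (adjusted p = 0.0972), nor by edgeR without knockdown replicate 1 (0.0639) or control replicate 1 (0.0696). TSC1 was not called on knockdown (0.027, 95% interval -0.061 to 0.11), nor was TSC2 (-0.047, 95% interval -0.11 to 0.013), which was called lower without the length trend (adjusted p = 0.0223 by edgeR) and without control replicate 1 (0.0475). Between the rescues DDIT4 was at 0.51 ± 0.024 SE, PRKAB1, another AMPK subunit, at 0.47 ± 0.060 SE and TSC2 at 0.13 ± 0.030 SE.

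Of 30 amino acid sensing genes 10 rose and 8 fell on knockdown (all genes 22.9% up, 25.1% down, list median 0.068), and 13 were higher and 7 lower in the mutant than in the wild-type rescue (all genes 21.0% higher, 20.3% lower, list median 0.093). DESeq2 called 11 on knockdown and 12 between the rescues, when it called 4767 and 3763 of the 15289 tested genes. SESN3, a sestrin that restrains mTORC1, had 1029 and 1016 CPM in the knockdown, against 625.2 and 616.3 in the control (0.72 ± 0.020 SE), and LAMTOR3, part of the lysosomal Ragulator complex, was at -0.78 ± 0.077 SE. Between the rescues the sestrin SESN2 was at 0.50 ± 0.053 SE and the arginine sensor CASTOR1, listed as GATSL3, at 0.55 ± 0.056 SE.

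Downstream, 6 of 17 mTORC1 substrates and partners rose and 6 fell on knockdown (all genes 22.9% up, 25.1% down, list median -0.0094), and 5 were higher and 7 lower in the mutant than in the wild-type rescue (all genes 21.0% higher, 20.3% lower, list median -0.023). Without mutant rescue replicate 2 the calls between the rescues numbered 7. GRB10, an adaptor that dampens insulin receptor signalling and is phosphorylated by mTORC1, had 209.9 and 212.9 CPM in mutant rescue cells, 292.0 and 291.4 in wild-type rescue cells, 317.3 and 323.9 in knockdown cells and 146.1 and 142.6 in control cells. The control libraries were the lowest and the knockdown libraries the highest. Its log2 fold change was 1.15 ± 0.028 SE, adjusted p = 1.76e-82 by edgeR on knockdown and -0.46 ± 0.027 SE, adjusted p = 2.69e-36 by edgeR between the rescues. TFEB, a transcription factor of lysosomal genes held in the cytoplasm by mTORC1, was at -0.67 ± 0.088 SE on knockdown, and LPIN1, a phosphatidate phosphatase, at 0.56 ± 0.048 SE between the rescues.

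AKT and mTORC2 substrates rose in 8 of 15 and fell in 2 on knockdown (all genes 22.9% up, 25.1% down, list median 0.14). Between the rescues 8 of 15 were higher and 0 lower in the mutant by edgeR (all genes 21.0% higher, 20.3% lower, list median 0.22 against 0.000032 for all genes). DESeq2 called 7 of the 15 in either direction, when it called 3763 of the 15289 tested genes. At an unadjusted p under 0.05 by edgeR 1 gene was lower, SGK1 (-0.35), named after its value was seen. On knockdown the kinase PRKCE was at 0.87 ± 0.15 SE and FOXO3, a transcription factor that AKT excludes from the nucleus, at 0.40 ± 0.036 SE. Between the rescues PRKCD was at 0.41 ± 0.025 SE and NDRG1, whose phosphorylation by SGK1 is used as a readout of mTORC2, at 0.29 ± 0.029 SE.

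Of 10 FOXO-induced genes 5 rose and 3 fell on knockdown (all genes 22.9% up, 25.1% down, list median 0.086), and 4 were higher and 2 lower in the mutant than in the wild-type rescue (all genes 21.0% higher, 20.3% lower, list median 0.075). TXNIP, which limits glucose uptake, had 104.8 and 100.8 CPM in mutant rescue cells, 197.4 and 189.5 in wild-type rescue cells, 255.2 and 252.9 in knockdown cells and 89.4 and 83.8 in control cells. Its log2 fold change was 1.55 ± 0.033 SE on knockdown and -0.91 ± 0.034 SE between the rescues. The transcription factor KLF15 was at -0.91 ± 0.074 SE on knockdown, and PIK3IP1, an inhibitor of PI3K, at 0.58 ± 0.046 SE between the rescues.

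**Figure D5:**
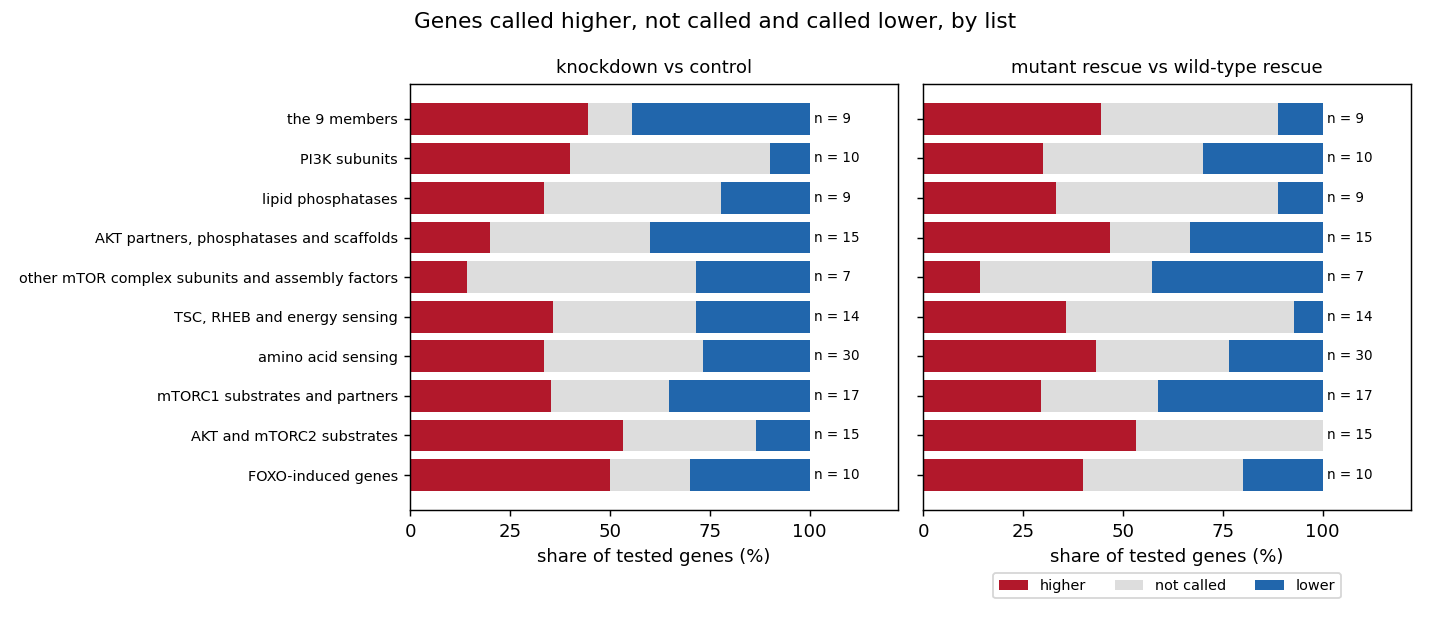
Share of tested genes called higher (red), not called (grey) and called lower (blue) in the 9 genes and in each of the 9 pathway lists, for knockdown over control (left) and mutant over wild-type rescue (right), where n is the number of tested genes. Of the AKT and mTORC2 substrates, 8 of 15 were called higher and 0 lower in the mutant rescue by edgeR, against 21.0% and 20.3% of all tested genes.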

How the data were processed

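RNA was sequenced from 8 LNCaP libraries, 2 for each of 4 lines, with a strand-specific kit per the labels. The authors deposited raw counts per gene, with a further column (of the other kind) that holds each gene's length. CASAVA, STAR 2.5.2b, featureCounts, DESeq2 and hg19 are named in the submitters' processing notes, and the strand setting is not given in the sources used here.

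The counts went into edgeR 4.0.16 (R 4.3.3). filterByExpr by group (minimum count 10, total 15) kept 15289 of 27140 genes, TMM scaled the libraries, and a robust quasi-likelihood fit over all 8 libraries gave each line its own mean. Two-sided p-values were adjusted by Benjamini-Hochberg over all tested genes. An SE is the size of the log2 fold change over the square root of its F. Each fold change is the first-named line over the second. Levels of different genes were compared as CPM per kb of the deposited length.

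The members and lists were chosen with earlier results of these data known. Beside the 9 members, METTL3 and direct partners, each list gave its called genes of at least 5 CPM with the 2 largest changes on knockdown and between the rescues. Alternatives were DESeq2 1.42.0 (its size factors, and its test), no filter on low counts, only the groups compared, a replicate block, leaving out each library, and removing each library's trend over gene length (lowess, span 0.3). The steps were tested on simulated data. GENCODE 29 is of another build than the counts and served only for motifs and exon overlap. Library depth was 15200343 to 17893241 counts, and reads are not independent molecules.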

Additional observations from a re-analysis of the deposited data

How the results depend on the processing

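Over 14 alternatives, 6 of the 54 results of the 9 genes lost their call in at least 1, and 5 were called in at least 1 but not as reported. With DESeq2 the number of all genes called was 4767 on knockdown (7337 as reported), 1705 for the wild-type rescue over the knockdown (3673), 3763 between the rescues (6307) and 4995 for the wild-type rescue over the control (7531). Between the rescues DESeq2 called 3 of the 9 genes in place of 5, and leaving out single libraries gave 3 to 5. No called result of the 9 genes changed sign, and 8 that were not called did. With the length trend removed, AKT2 in the wild-type rescue over the knockdown was at 0.0068, PHLPP2 in the mutant rescue over the knockdown at 0.057, RPTOR in the wild-type rescue over the control at 0.018, and TSC1 on knockdown at -0.059. Over libraries left out, the difference between the rescues was -0.066 to 0.030 for PHLPP1, -0.028 to 0.093 for MTOR, -0.087 to 0.042 for RPTOR, -0.13 to 0.019 for PRR5 and -0.0044 to 0.074 for TSC1. For the wild-type rescue over the control it was -0.11 to 0.0092 for PHLPP2 and -0.087 to 0.043 for RPTOR. The cause of these changes was not tested. Libraries of the same replicate number showed no strong shared deviation (correlation across genes -0.0424 to 0.0250 over the 6 pairs of lines). Counting noise could hide a small one, so this does not decide whether the numbers pair the libraries. With the replicate number as a block, 8 of the 9 genes were called on knockdown, 7 in the mutant and 4 in the wild-type rescue over the knockdown, 5 between the rescues, and 5 in each rescue over the control, the same counts as reported. Depth limits DEPTOR most, at 216 to 329 counts per library.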
